A study of Danio rerio with 12 samples.

Results

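Open chromatin of cells that carry the endothelial reporter alone was set against that of cells with no reporter, in zebrafish embryos at 72 hours post fertilisation. The members are every peak on chromosomes 1 to 25 of 2 lists, 134260 peaks of the kdrl:mCherry+, sele:GFP- fraction (mCherry only) and 166282 of the kdrl:mCherry-, sele:GFP- fraction (double negative). These are 300542 of the 529593 peaks that the 4 lists of the series hold on those chromosomes. A peak was called shared where it overlapped a peak of the other list by 1 bp or more. An mCherry only peak with no such partner is called gained, and a double negative peak with none is called lost.

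The assay was ATAC-seq, which uses the Tn5 transposase to cut exposed DNA and tag it for sequencing. All embryos were untreated, labelled wild-type, and carried both transgenes, and whole embryos were dissociated and sorted by fluorescence, so that the fractions differ by gate and not by genotype or age. Each fraction had 3 samples of 12000 to 50000 cells, and the lists of the double positive (kdrl:mCherry+, sele:GFP+) and GFP only (kdrl:mCherry-, sele:GFP+) fractions served as context. One list was made for the 3 samples of a fraction, so differences below are without a replicate check and carry no p-value. Intervals cover counting error only.

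kdrl, a VEGF receptor gene, is a standard marker of zebrafish vascular endothelium, the cells that line blood vessels. sele is the gene of E-selectin, with which endothelium binds passing white blood cells. The double negative gate takes the rest of the embryo, a mixture that includes muscle, nerve, skin and other tissues. Promoters of widely used genes are typically open in most cell types, whereas distal enhancers are more often open in the cell types that use them. In such mixtures, fewer cells with a region open and less opening per cell cannot be told apart. The lists name no genes, so the endothelial identity of the gated cells was not checked against marker genes, and whether a region is a promoter, exon or intron was not analysed here.

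The depth of both lists was close. The background, that is the number of reads expected at a random position, was 4.46 for mCherry only and 4.47 for double negative, a ratio of 0.999. Called peaks had a median of 28 reads at the summit in mCherry only and of 26 in double negative, and at least 11 in both. The most reads at any summit lay between 365 and 371 in all 4 lists. Height is used below for the reads at the summit divided by the background of the list.

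Most mCherry only peaks were also called in double negative, and a smaller share of the longer double negative list was called in mCherry only. Of the mCherry only peaks, 96864 (72.1%, Wilson 95% interval 71.9 to 72.4) were shared, and of the double negative peaks 96237 (57.9%, 57.6 to 58.1). With lists of equal length the shares were 65.5% and 64.8%. There were 37396 gained and 70045 lost peaks. Merging both lists gave 202311 regions, of which 18.5% were gained and 34.6% lost. In bases, the lists shared 39.5 Mb of a union of 91.3 Mb, a Jaccard index of 0.432. The shared bases were 68.5% of those covered by mCherry only and 53.9% of those covered by double negative.

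The excess of lost over gained peaks depended on the length of the lists and on height. Lost peaks were 1.87 times as many as gained ones over all heights. With the double negative list shortened to the length of the mCherry only list by −log10 q, gained and lost peaks numbered 46316 and 47312. At height 10 or more the order was the other way, with 3713 gained and 2856 lost peaks. At height 20 or more there were 239 gained peaks among 9975, and 45 lost peaks among 8998, so that gained peaks were 5.31 times as many. Not all of these stood out from their surroundings. A deposited fold of 5 or more over the local background was held by 191 of the 239 gained and by 11 of the 45 lost peaks.

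Sharing rose with height in both lists, from a lower start in double negative. Below height 4, the shared part was 54.3% in mCherry only (53.7 to 55.0) and 27.8% in double negative (27.3 to 28.4). From height 10 to 15 the shares were 84.6% (84.1 to 85.1) and 86.9% (86.4 to 87.4). From height 15 to 20 they were 91.8% (91.2 to 92.4) and 96.6% (96.1 to 96.9). The shares thus crossed near height 10, above which an mCherry only peak was the more likely one to lack a partner. At height 30 or more, those without one numbered 18 of 3142 in mCherry only and 9 of 2958 in double negative.

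**Figure D1:**
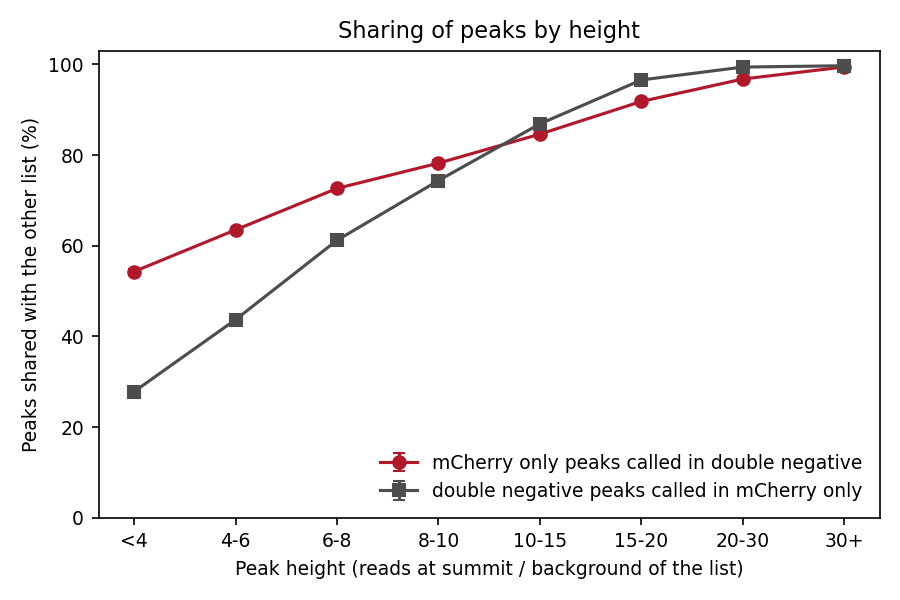
Share of peaks that overlap the other list (y axis, percent) by height of the peak in its own list (x axis), for mCherry only (red circles) and double negative (grey squares). Bars are Wilson 95% intervals, mostly smaller than the symbols; the red line runs from 54.3% to 99.4% and the grey one from 27.8% to 99.7%, and they cross near height 10.

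Gained and lost peaks were low and narrow beside shared ones. Median height was 4.93 for gained and 4.70 for lost peaks, against 7.18 and 7.61 for shared peaks of mCherry only and double negative. Median width was 283 bp for gained peaks (quartiles 228 and 375) and 415 bp for shared mCherry only peaks (294 and 582). Lost peaks were wider than gained ones, at 310 bp (240 and 420), and shared double negative peaks were 450 bp wide (314 and 627). A −log10 q under 5 was found in 40.8% of gained and 42.4% of lost peaks, and in 19.3% and 13.7% of the shared ones.

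The difference in width was also present among peaks of like height. A wider peak meets the 1 bp rule for a shared peak more easily, so width itself enters the class. The part of this rule in the difference was not tested. From height 6 to 8, the median was 320 bp for gained peaks and 395 bp for shared mCherry only peaks. In the same range it was 398 bp for lost and 421 bp for shared double negative peaks. From height 10 to 15 the 4 medians were 415, 515, 488 and 551 bp in that order. In both ranges gained peaks fell short of the shared peaks of their list by more than lost peaks did. From height 15 to 20 this was not so, with 488 and 602 bp in mCherry only and 490 and 647 bp in double negative.

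Tall gained regions were mostly open in the other mCherry-positive fraction too. Of the 3713 gained peaks of height 10 or more, 3120 (84.0%) overlapped a double positive peak and 1423 (38.3%) a GFP only peak, although the GFP only list is the longer one, with 138364 peaks against 90687. Shared mCherry only peaks of that height showed no such gap, with 95.6% in double positive and 96.3% in GFP only. Of the tall gained peaks, 408 (11.0%) were in neither list, against 0.814% of shared mCherry only peaks of that height. Over all heights the shares of gained peaks were 37.0% in double positive and 30.6% in GFP only, and 46.0% were in neither, against 64.2%, 79.2% and 14.0% of shared mCherry only peaks. Of the 239 gained peaks of height 20 or more, 226 (94.6%) were called in double positive and 142 (59.4%) in GFP only. For shared mCherry only peaks of that height these shares were 99.7% and 99.5%.

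Lost regions were more often called in GFP only than in double positive, and over all heights most were called in neither. The GFP only list is also the longer one, with 138364 peaks against 90687, and the part of list length in this order was not tested. Of all lost peaks, 6.03% lay in double positive and 23.8% in GFP only, and 73.1% were called in neither. For shared double negative peaks of all heights these shares were 64.6%, 79.6% and 13.6%. Among the 2856 lost peaks of height 10 or more, 7.49% were in double positive, 31.9% in GFP only and 64.7% in neither. Shared double negative peaks of that height were in double positive in 83.2% and in GFP only in 92.9% of cases. At height 10 or more, a gained peak was thus called in neither context list in 11.0% of cases and a lost peak in 64.7%. The base also differed, as 0.814% of shared mCherry only peaks and 4.93% of shared double negative peaks of that height were in neither. Of the 45 lost peaks of height 20 or more, 12 were called in double positive, 22 in GFP only and 20 (44.4%, 30.9 to 58.8) in neither. For shared double negative peaks of that height the shares were 96.5%, 99.0% and 0.603%.

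**Figure D2:**
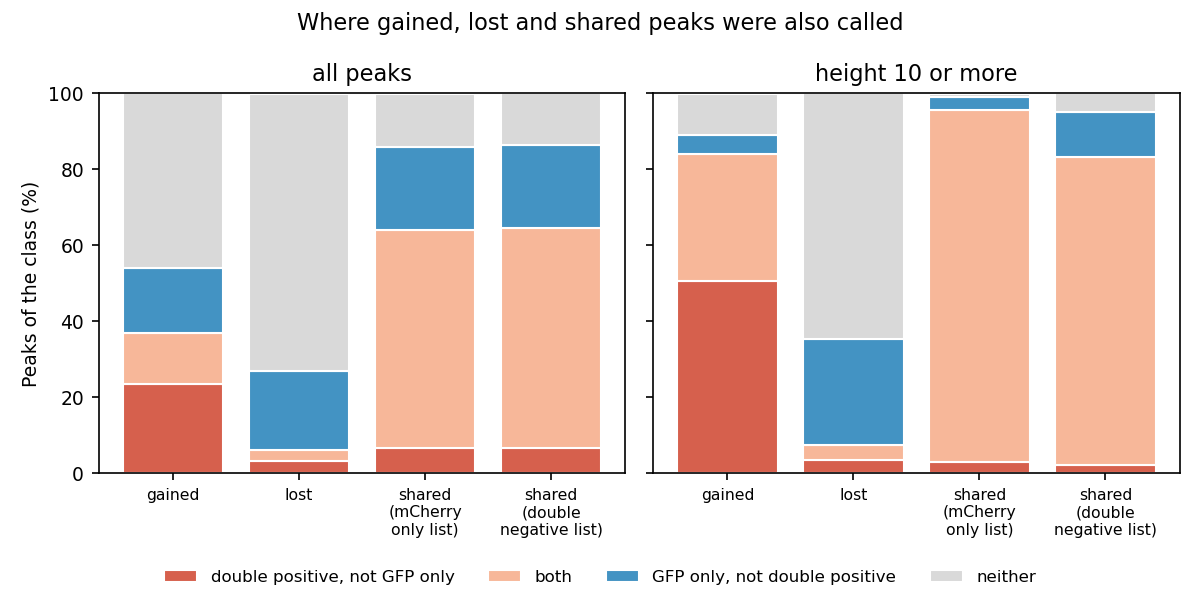
Share of gained, lost and shared peaks (y axis, percent of the class) that were also called in double positive but not GFP only (dark red), in both of these (light red), in GFP only but not double positive (blue) or in neither (grey), for all peaks (left) and peaks of height 10 or more (right). In the right panel dark red holds 50.7% of gained and 3.40% of lost peaks, and grey 11.0% and 64.7%.

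The 10 gained regions with the highest deposited fold, 13.8 to 15.7, were spread over 9 chromosomes. All 10 were called in double positive, with 31 to 110 reads, and 8 in GFP only, with 13 to 27 reads. Of all gained peaks of height 10 or more, 84.0% were called in double positive and 38.3% in GFP only. The leading region was chr11:46126651-46127150 in the danRer7 build, with 126 reads in mCherry only (exact Poisson 95% interval 105 to 150), 63 in double positive and 23 in GFP only. Its nearest double negative peak lay 7196 bp away. At chr20:6498205-6498839, mCherry only had 87 reads (69.7 to 107), double positive 89 and GFP only 18. At chr12:37918052-37918655, mCherry only had 81 reads (64.3 to 101), fewer than the 110 in double positive, and GFP only 16.

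In 2 of the 10 regions no GFP only peak was called. In the first, chr6:33721551-33721995, mCherry only had 91 reads (73.3 to 112) and double positive 96. In the other, chr19:2637188-2637605, mCherry only had 75 reads (59.0 to 94.0) and double positive 31. At chr23:39135792-39136336, mCherry only had 98 reads (79.6 to 119), double positive 104 and GFP only 13. The background of double positive was lower, 3.63 reads against 4.46, so heights and reads can order these lists differently. At chr17:52062070-52062534, mCherry only had more reads than double positive, 91 against 85, but a lower height, 20.4 against 23.4. Which scale compares the lists better was not tested. By height, 6 of the 10 regions were higher in double positive, as at chr12:37918052-37918655 with 30.3 against 18.2 in mCherry only. The other 4 were higher in mCherry only, as at chr11:46126651-46127150 with 28.3 against 17.3 in double positive.

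The 10 leading lost regions had 66 to 111 reads and were spread over 7 chromosomes. None was called in double positive, and 3 were called in GFP only with 18 to 20 reads. Of all lost peaks of height 10 or more, 7.49% were called in double positive and 31.9% in GFP only, so these counts do not set the leading regions apart. The highest fold was that of chr1:54192078-54192458, where double negative had 92 reads (74.2 to 113), and the nearest mCherry only peak lay 24214 bp away. The most reads were those at chr22:17427656-17428379, 111 in double negative (91.3 to 134) beside 20 in GFP only. Another region of that chromosome, chr22:4810421-4810845, had 82 reads (exact Poisson lower bound 65.2) and no peak in any other list.

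Where both fractions had a peak, the summit signal was mostly alike. Of the 94870 merged regions with both lists, 91684 (96.6%) held 1 peak of each, and signal was compared in these. The median log2 ratio of height, mCherry only over double negative, was 0.0021 (quartiles −0.44 and 0.35). In 76975 regions (84.0%) the heights lay within 2-fold. A region entered here only with a call in both lists, at 11 or more reads in each, which bounds the ratio in low regions. Below a geometric mean height of 4, 99.5% of regions lay within 2-fold. Regions called in 1 list alone count as gained or lost instead, and the part of this floor in the shares was not tested. Height was at least 2-fold higher in mCherry only in 5644 regions (6.16%) and at least 2-fold higher in double negative in 9065 regions (9.89%). With the ratio centred on its median in regions of all 4 lists, 0.10 on the log2 scale, these shares were 4.89% and 11.6%.

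The balance between the fractions depended on how tall a region was. From a geometric mean height of 4 to 6, 3.48% of regions were 2-fold higher in mCherry only and 9.70% in double negative. At 10 or more, both were near the same share, with 1621 of 28406 regions higher in mCherry only and 1704 higher in double negative. At 20 or more, 51 and 74 of 7629 regions passed 2-fold, and at 30 or more 0 and 1 of 2534. The 5 tallest shared regions had 343 to 358 reads in mCherry only, 335 to 362 in double negative, 328 to 351 in double positive and 338 to 367 in GFP only. The tallest of them, on chromosome 17 from 40105819 to 40107516, had 358 and 362 reads, a ratio of 0.990 (0.853 to 1.149). Reads at the summit reached at most 370, 365, 371 and 369 in mCherry only, double negative, double positive and GFP only, although the background was 3.63 in double positive and 4.46 in mCherry only. The ratios near 1 in the 5 tallest regions thus lie where every list is close to its highest value. At a geometric mean height of 30 or more, median reads were 161 in mCherry only and 160 in double negative. The part of such an upper limit in the ratios was not tested.

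**Figure D3:**
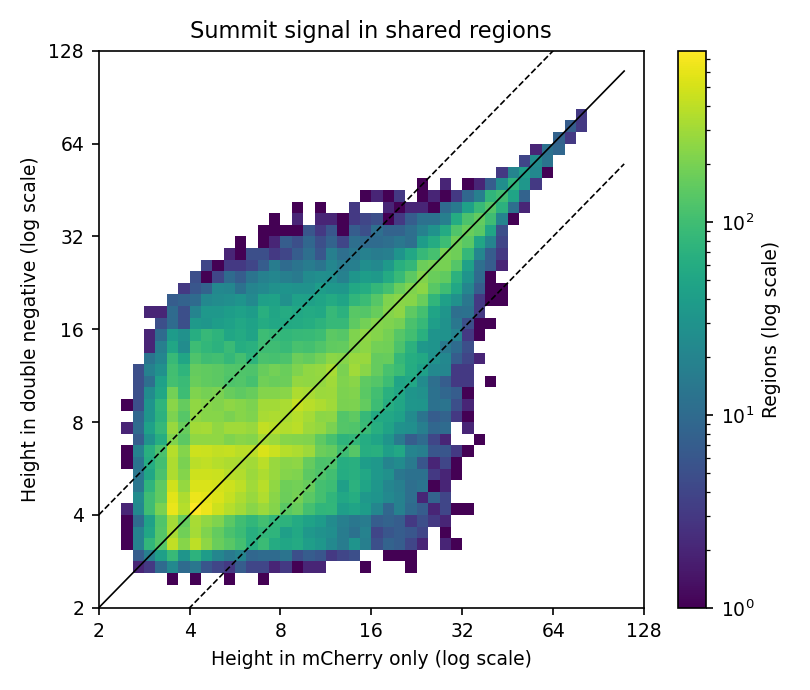
Height at the summit in mCherry only (x axis) and in double negative (y axis), both on log scales, in the 91684 shared regions with 1 peak of each list; colour is the number of regions per cell on a log scale. The solid line marks equal height and the dashed lines 2-fold. Of the regions, 84.0% lie within 2-fold, and the spread narrows with height. The 5 tallest regions lie close to the highest value of every list.

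Among the 28406 shared regions of geometric mean height 10 or more, the 10 with the highest ratio were 6.38 to 8.88 times as high in mCherry only. They had 119 to 143 reads in mCherry only against 15 to 19 in double negative, so they passed the height filter through mCherry only. As the extremes of many regions, their ratios are inflated by the choice, which the intervals do not cover. The leading region, chr2:48402350-48403065, had 133 reads in mCherry only and 15 in double negative, a ratio of 8.88 (5.19 to 16.3, exact conditional binomial interval), with 97 reads in double positive and 25 in GFP only. The region on chromosome 21 from 4407480 to 4408117 had 143 and 19 reads, a ratio of 7.54 (4.65 to 12.9), and 176 reads in double positive against 40 in GFP only. That on chromosome 2 from 1027031 to 1027923 had 121 and 19 reads, a ratio of 6.38 (3.91 to 11.0), and 121 in double positive against 15 in GFP only.

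All 10 of these regions were called in both context lists, and in all 10 the height in double positive exceeded that in GFP only. Of all 28406 shared regions of geometric mean height 10 or more, 94.4% were called in double positive and 97.6% in GFP only. Double positive was the higher in 61.5% of those called in both. That share was 83.2% among those at least 2-fold higher in mCherry only than in double negative. The smallest double positive signal was that of the region on chromosome 11 from 34600427 to 34601403, with 39 reads in double positive and 20 in GFP only, beside 119 in mCherry only. By height, these were 10.7 in double positive and 4.69 in GFP only.

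The 10 shared regions with the lowest ratio were 4.96 to 5.62 times as high in double negative, with 106 to 134 reads against 19 to 27. They passed the height filter through double negative, and here too the intervals do not cover the choice of extremes. In GFP only all 10 were called, with 14 to 25 reads, and in double positive 3, with 12 to 17 reads. Both leading regions had 107 reads in double negative and 19 in mCherry only, a 5.62-fold difference (3.43 to 9.70). One lies on chromosome 2 from 5416487 to 5416986, with 14 reads in GFP only. The other lies on chromosome 9 from 7629192 to 7629707, with 25 reads in GFP only, and double positive had a peak at neither. The region with the most reads, on chromosome 20 from 40332747 to 40333269, had 134 in double negative, 27 in mCherry only, 25 in GFP only and 17 in double positive. The low mCherry only signal follows from the choice of these regions. GFP only was low in all 10, and where double positive had no peak its signal is not known. Of all 1704 shared regions of geometric mean height 10 or more that were 2-fold higher in double negative, 67.0% were called in double positive. In GFP only, 90.8% of them were called.

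The GFP-positive fractions give the same contrast by mCherry in other samples, as double positive against GFP only. Samples of all 4 fractions carry the same replicate numbers, so they may come from the same embryos and sort. They are thus not taken as independent, and the part of shared embryos or sorting was not tested. They took no part in sorting regions by the ratio of mCherry only to double negative. The ratios below cover only regions also called in both GFP-positive lists, so these lists did decide which regions were kept. Kept were 4260 of the 5644 regions higher in mCherry only and 2332 of the 9065 higher in double negative. In the 52586 regions called in all 4 lists, double positive height was at least 2-fold above GFP only in 7.39% and at least 2-fold below it in 6.06%. Among regions 2-fold higher in mCherry only than in double negative, 4260 were in all 4 lists, and 1691 of these (39.7%) were also 2-fold higher in double positive than in GFP only. The median log2 ratio of double positive over GFP only was 0.72 there (quartiles 0.04 and 1.43), 0.05 over all regions and 0.03 in regions within 2-fold. Median height was 13.5 in double positive and 7.74 in GFP only.

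In regions called in all 4 lists, the shift in the other direction was smaller. Of the 2332 regions 2-fold higher in double negative and called in all 4 lists, 268 (11.5%) were 2-fold higher in GFP only and 46 (1.97%) in double positive. Their median log2 ratio was −0.21 (quartiles −0.60 and 0.13). Only 30.8% of the 9065 regions were called in double positive at all, against 65.9% in GFP only, so that the regions with a ratio are a minority. Over all 91684 regions these shares were 64.1% and 79.3%, and in the 5644 regions higher in mCherry only 88.5% and 83.4%. A region with no double positive peak has no ratio, so the ratios cannot rank the strength of both directions. Across the 52586 regions the log2 ratios of both contrasts had a Pearson r of 0.306 and a Spearman rho of 0.21. These are descriptions, since regions of a list share libraries and depth.

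**Figure D4:**
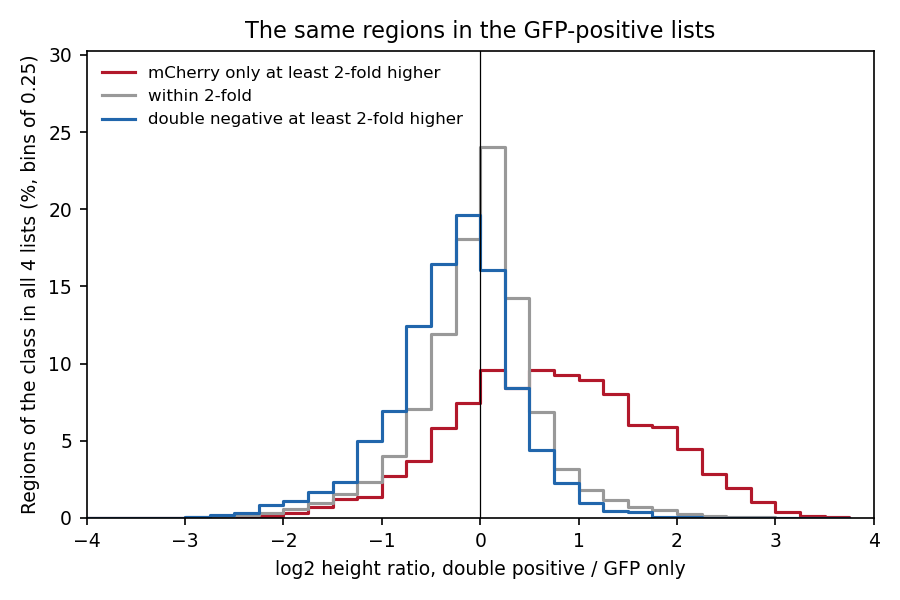
Distribution of the log2 height ratio of double positive over GFP only (x axis) in regions called in all 4 lists, as percent of regions per bin of 0.25 (y axis), for regions at least 2-fold higher in mCherry only (red), within 2-fold (grey) and at least 2-fold higher in double negative (blue). The red curve has its median at 0.72, the grey one at 0.03 and the blue one at −0.21.

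Peak width went with height in shared regions. The mCherry only peak had a median width of 415 bp and the double negative peak of 447 bp, and the median log2 ratio of width was −0.04 (quartiles −0.36 and 0.20). In regions 2-fold higher in mCherry only the widths were 543 and 347 bp, and in regions 2-fold higher in double negative 335 and 594 bp. These regions were chosen by height, and taller peaks were wider in both lists, so this is no separate result. From below height 4 to 30 or more, the median width of shared peaks rose from 261 to 806 bp in mCherry only. In double negative it rose from 263 to 839 bp. The summits of both lists lay a median of 30 bp apart (quartiles 10 and 78) and within 50 bp in 63.6% of regions. In 6857 regions (7.48%) they were over 200 bp apart. At a geometric mean height of 20 or more the median distance was 9 bp, and 216 of 7629 regions were over 200 bp apart.

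The gained share varied little among chromosomes, and the lost share more. The gained share of mCherry only peaks ranged from 26.3% on chromosome 25 (24.9 to 27.8) to 29.7% on chromosome 4 (28.5 to 30.9). The lost share of double negative peaks ranged from 37.6% on chromosome 23 (36.4 to 38.9) to 45.2% on chromosome 14 (44.0 to 46.4). Chromosome 22 was low in both, with 26.6% gained and 38.2% lost, and chromosome 4 was high in both, with 29.7% and 45.1%. Chromosome 23 was low in lost peaks only, with 28.6% gained.

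**Figure D5:**
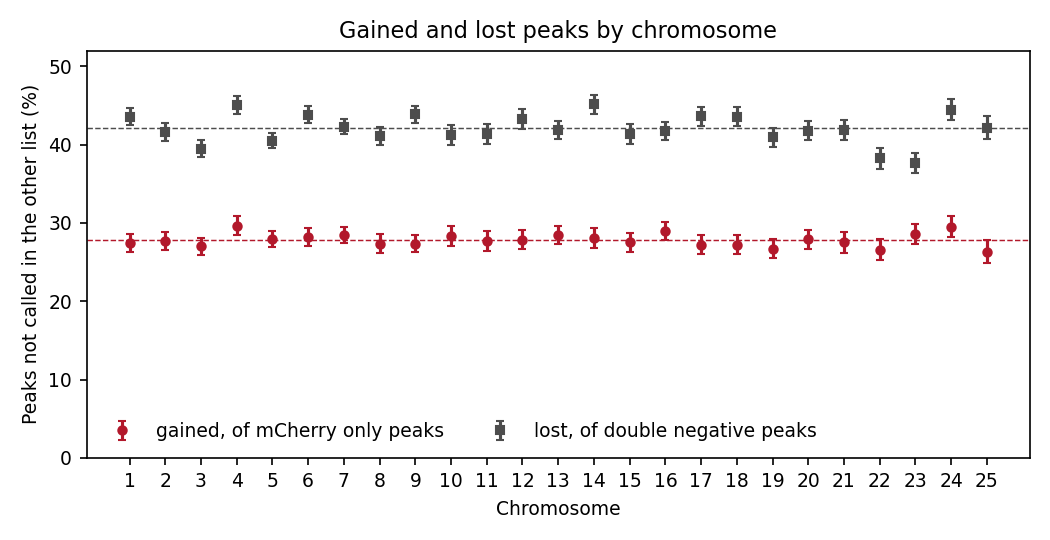
Gained peaks as percent of mCherry only peaks (red circles) and lost peaks as percent of double negative peaks (grey squares) on each of the 25 chromosomes; bars are Wilson 95% intervals and dashed lines the shares over all chromosomes. Gained shares lie between 26.3% and 29.7%, and lost shares between 37.6% and 45.2%.

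Over windows of 5 Mb that held 200 or more peaks of the list, the lost share ranged from 24.6% to 61.0% over 275 windows, with a median of 41.9%. The highest share was that of chromosome 12 from 40 to 45 Mb, where 384 of 630 double negative peaks were lost. The window from 0 to 5 Mb of chromosome 16 followed, with 406 of 724 peaks (56.1%). The gained share ranged from 17.2% to 35.4%, with a median of 28.0%, and was highest on chromosome 22 from 30 to 35 Mb, with 173 of 489 peaks. The first 5 Mb of chromosome 22 had the lowest gained share, 100 of 581 peaks, and a low lost share, 171 of 651 (26.3%). Near the outermost peaks of the chromosomes, within 0.5 Mb, 36.3% of double negative peaks were lost (34.8 to 37.8), against 42.0% at 10 Mb or more (41.7 to 42.3). The gained share was 26.9% (25.4 to 28.4) and 28.1% (27.8 to 28.4) in the same bins.

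A gained or lost peak was followed by one of its own class more often than a shared peak was followed by one of that class. After a gained peak, the next mCherry only peak was also gained in 33.7% of cases, and after a shared peak in 25.6%. After a lost peak, the next double negative peak was lost in 51.0% of cases, and after a shared peak in 35.7%. Summits of gained peaks lay a median of 3.32 kb from the nearest double negative summit, and 13.0% lay within 1 kb of one. Lost summits lay a median of 4.74 kb from the nearest mCherry only summit, and 22.5% were over 10 kb away, against 11.6% of gained ones in their direction. The lists searched differ in length, 166282 double negative and 134260 mCherry only peaks, and such distances rise as the searched list gets shorter. No distance is given for all peaks, so lost peaks are not shown to be the more isolated class.

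Runs were counted as 5 or more summits of a class with gaps of at most 20 kb. There were 1453 runs of gained peaks, which held 26.4% of them, and 4331 runs of lost peaks, with 58.4%. With a fixed gap these values rise with the number of peaks in a class, 37396 gained and 70045 lost. No share in runs is given for all peaks, so runs are not shown to be particular to either class. With lists of equal length, the runs numbered 2211 and 2567, a smaller gap between the classes. The longest gained run lay on chromosome 1 from 58373911 to 58533807. It held 24 gained peaks of 16 to 64 reads, among 32 mCherry only, 9 double negative, 15 double positive and 11 GFP only peaks. Here the low double negative count follows from the choice of a run of gained peaks. The longest lost run lay on chromosome 4 from 9184882 to 9623005, with 85 lost peaks of 13 to 50 reads. There the lists held 104 double negative, 28 mCherry only, 26 GFP only and 11 double positive peaks. The low mCherry only count follows from the choice of a run of lost peaks.

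A few windows held groups of tall gained or lost peaks. Of 2564 windows of 100 kb with a gained peak of height 10 or more, 32 held 5 or more such peaks. For lost peaks of that height these were 13 of 2159 windows. The same count over all tall peaks is not given, so grouping is not shown to be particular to either class. A group on chromosome 16 from 44758821 to 44799637 held 7 tall gained peaks of 45 to 117 reads, all 7 called in double positive and 5 in GFP only. On chromosome 8 from 29204701 to 29300157, 7 tall gained peaks had 53 to 159 reads, of which 4 were called in double positive and 1 in GFP only. The group on chromosome 24 from 25000857 to 25069725 held 7 tall lost peaks of 45 to 61 reads, 1 of them in double positive and 0 in GFP only, in a window with 29 double negative and 7 mCherry only peaks. Of all gained peaks of height 10 or more, 84.0% were called in double positive and 38.3% in GFP only. For lost peaks of that height these shares were 7.49% and 31.9%. The counts within groups of 7 peaks are thus not read as traits of these groups, which were chosen after their values were seen.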

How the data were processed

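ATAC-seq peaks of cells sorted from zebrafish embryos were taken as the authors deposited them, in 4 lists of which 2 were compared. Bowtie2 2.2.1, MACS2 2.1.0 and the danRer7 build were used, per the submitters' processing notes; caller settings, read filters, Tn5 offsets and pooling: not given in the sources used here. In the deposited lists each peak has a display score (not used), a fold (a linear ratio over the local background), the −log10 of its p and q (−log10 p, −log10 q) and the offset of its summit, all the authors' values for that peak. Peaks of the mitochondrial genome were left out.

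Reads at the summit were recovered as the whole number that gives both the fold, with a pseudocount of 1, and the −log10 p under a Poisson tail. The largest misfit of −log10 p was 0.000382, and the next-best whole number was off by 0.0113 or more. This pileup model is inferred from the values. The lowest expected background of a list was its genome-wide background. The calculations were tested on simulated data. A 2-fold call allowed a tolerance of 0.01 on the log2 scale. Wilson, exact Poisson and exact binomial 95% intervals cover counting error only, and the labels do not say whether the 3 samples came from separate clutches. Coordinates are danRer7 and 1-based.

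Regions named are the 10 gained and 10 lost peaks of the highest fold, the 10 highest and 10 lowest ratios and the 5 tallest among shared regions of geometric mean height 10 or more, and the longest runs. Members, classes and alternatives were chosen with earlier results of these data known. Groups of tall peaks, fold floors and the deeper selection of the GFP-positive contrast were chosen after seeing the data. Python 3.11.15, numpy 2.4.6, pandas 2.3.3 and scipy 1.17.1 were used. No danRer7 sequence or annotation was used here, so no sequence is printed.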

Additional observations from a re-analysis of the deposited data

Results flagged for a closer look

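A minority of shared regions differed between fractions in opposite directions with and without GFP. In 161 regions mCherry only was at least 2-fold above double negative while GFP only was at least 2-fold above double positive. In 46 regions double negative was at least 2-fold above mCherry only while double positive was at least 2-fold above GFP only. These were 3.78% of 4260 and 1.97% of 2332 regions, below the 6.06% and 7.39% of all 52586 regions with GFP only or double positive 2-fold higher. Both were listed because the direction by mCherry turned with GFP, and this difference was not tested. The regions that moved 2-fold the same way in both contrasts numbered 1691, higher with mCherry, and 268, lower with mCherry.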

How the results depend on the processing

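No paired analysis was possible because each fraction is 1 pooled list for its 3 samples, and leaving out a replicate was not possible for the same reason. Adding unplaced scaffolds changed nothing, since the lists hold none. Counts were taken as unmoved within 1.5 times, and shares and medians within their 95% counting interval, which is narrow here. The gained count stayed within 1.5 times with reciprocal overlap of 50% (52549), summit inside a peak, a gap of 200 bp, −log10 q of 5 in both lists and equal length; the lost count did too. With −log10 q of 5 in the counted list, gained and lost peaks were 22154 and 40373, and with height 10 in the counted list 3713 and 2856, which removes peaks by construction.

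Shares of mCherry only and double negative peaks called shared were 60.9% and 49.1% with reciprocal overlap of 50%, 69.8% and 55.4% with the summit inside, 73.5% and 59.1% with a gap of 200 bp, 70.6% and 57.1% with −log10 q of 5 in both lists, 77.9% and 67.3% with it in the counted list, 65.5% and 64.8% with equal length, and 89.9% and 92.2% with height 10. The order of these shares turned at height 10 alone. Gained peaks lay in double positive and GFP only in 31.7% and 28.4% with reciprocal overlap, 51.1% and 40.4% with −log10 q of 5 in both, 38.0% and 35.5% with equal length, and 84.0% and 38.3% at height 10. For lost peaks these were 6.53% and 20.2%, 9.67% and 32.9%, 5.73% and 25.3%, and 7.49% and 31.9%. Runs of gained and lost peaks numbered 2211 and 2567 with equal length, and 23 and 8 at height 10.

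The median log2 ratio of height in shared regions had no stable sign: 0.21 among regions of mCherry only height 10, −0.12 of double negative height 10, −0.032 with the deposited fold and −0.093 when centred on regions of all 4 lists. Selecting on the height of 1 list favours that list by construction; for the other changes, the cause was not tested. Shares 2-fold higher in mCherry only and in double negative were 14.0% and 0.928%, 0.914% and 19.1%, 2.74% and 4.87%, and 4.89% and 11.6% under those settings, and 5.47% and 7.52% with reciprocal overlap. Summit distance was 15, 16 and 26 bp with mCherry only height 10, double negative height 10 and reciprocal overlap. Median widths of gained and lost peaks were 287 and 322 bp with reciprocal overlap, 336 and 386 bp with −log10 q of 5 in both, and 317 and 384 bp at height 5 to 10, and the log2 width ratio in shared regions was −0.021, −0.019 and −0.063. At geometric mean height 10, an alternative added after seeing the data, the double positive over GFP only median was 0.87 and 44.3% of regions passed 2-fold.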

Other observations

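The tallest lost peaks were narrow and lay on a high local background, and the tallest gained peaks varied more. The 9 lost peaks of height 30 or more had a median width of 215 bp and folds of 1.35 to 2.11, with a median of 114 reads expected from their surroundings. Of these 9 peaks, 3 were called in double positive and 4 in GFP only. The 18 gained peaks of that height had a median width of 332 bp (202 to 781) and folds of 1.26 to 10.8. Their median was 76.0 expected reads (11.8 to 179), and 5 of them had a fold of 5 or more. Of the 18, 13 were called in double positive and 11 in GFP only. Shared mCherry only peaks of height 20 or more were called in these lists in 99.7% and 99.5% of cases. For shared double negative peaks of that height these shares were 96.5% and 99.0%. From height 20 to 30, the 221 gained peaks had a median fold of 8.77 and 10.6 expected reads, and the 36 lost peaks a median fold of 3.29 and 27.7 expected reads. The part of the local background in these calls was not tested.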
